A study of Mus musculus with 6 samples.

Results

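The potassium channel genes are the 92 genes of the deposited table, out of 53379, whose name is Kcn followed by a subfamily letter and a number. Of these, 40 encode voltage-gated channels, 15 inward rectifiers, 14 two-pore channels, 5 calcium-activated channels and 3 sodium-activated or other Slo channels, and 15 encode auxiliary subunits. Their expression was measured by RNA-seq in neural stem cells (NSCs) derived from the cortex of mouse embryos at day 14.5 and grown with bFGF and EGF. All cells carried the *Tbl1xr1* flox/flox alleles. For 3 libraries the virus carried GFP (control replicates 1, 1_1 and 2). For the other 3 it carried Cre (Cre replicates 2, 2_2 and 3), to delete *Tbl1xr1*, a subunit of the NCOR corepressor complex. The study describes both as lentiviruses, with GFP in the Cre virus too, and sorted GFP+ cells. The labels do not give the embryo or culture behind each library, and replicates 1 and 1_1, or 2 and 2_2, may come from the same cells. In every value below n counts libraries, so that SDs and p-values measure the spread between these libraries, which may be technical.

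Potassium channels let potassium ions leave or enter the cell along their gradient and thereby set the resting potential and shape electrical signals. Voltage-gated channels open on depolarization, inward rectifiers and two-pore channels carry much of the resting current, and calcium-activated channels open when calcium rises inside the cell. Glial cells are known for a high resting potassium conductance, with which they take up the potassium that neurons release.

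The targeted gene was examined first. *Tbl1xr1* had normalized counts of 2522, 2190 and 2721 in the control libraries (replicates 1, 1_1 and 2, the order used throughout), and of 3774, 3463 and 2905 in Cre replicates 2, 2_2 and 3. The whole-gene count was therefore not lower in the Cre-labelled libraries, which all lay above the control libraries (log2 fold change 0.45 ± 0.14 (SE), limma adjusted p = 0.0600). This count also takes in the exons outside the floxed part, so that it does not check the deletion. The study reports that it checked the genotype and the absence of *Tbl1xr1* mRNA and protein in the sorted cells. Normalized counts are reads divided by 1 size factor per library, and the reads recovered from them summed to between 7510615 and 14828100 per library. Among 9 NSC markers, all were detected, and 1 of them, the filament gene *Nes*, was lower in the Cre-labelled libraries (log2 fold change -0.85, limma adjusted p = 0.00384).

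Potassium channel genes were changed in both directions, with 3 higher and 4 lower in the Cre-labelled libraries. Of the 92 genes, 34 reached 10 in their mean normalized count and were tested with limma on log2(normalized count + 1), with p-values adjusted over all 14840 genes tested. A total of 7 of the 34 (20.6%) passed an adjusted p of 0.05, beside 9.96% of all genes tested. *Kcna6*, *Kcnd2* and *Kcnj16*, 3 of the 34, rose, beside a rise in 4.74% of all genes tested. *Kcnj10*, *Kcnj12* and *Kcnip1* were among the 4 of the 34 that fell, beside a fall in 5.22% of all genes tested. The fold changes were balanced, since 17 were positive and 17 negative, with a median of 0.01 on the log2 scale, beside 0.00 over all genes tested. Their median size regardless of sign was 0.71, beside 0.26 over all genes tested. The sets were not matched for level, and fold changes of low genes are noisier (SE 0.65 for *Kcnip1*, beside 0.11 for *Kcnj16*). In 19 of the 34 (55.9%) all Cre libraries were above or all were below the control libraries, 9 above and 10 below, beside 30.3% of all genes tested. The quasi-likelihood test of edgeR on the recovered reads called 8 of the 34, beside 9.99% of all genes, and DESeq2 called 11, beside 11.8%. With control replicates 1 and 1_1 averaged and counted once, 5 of the 34 and 660 of all genes passed in limma, in place of 7 and 1478, and with Cre replicates 2 and 2_2 averaged 8 and 1474 passed. In bulk cultures, fewer cells of a type and less RNA per cell cannot be told apart.

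**Figure D1:**
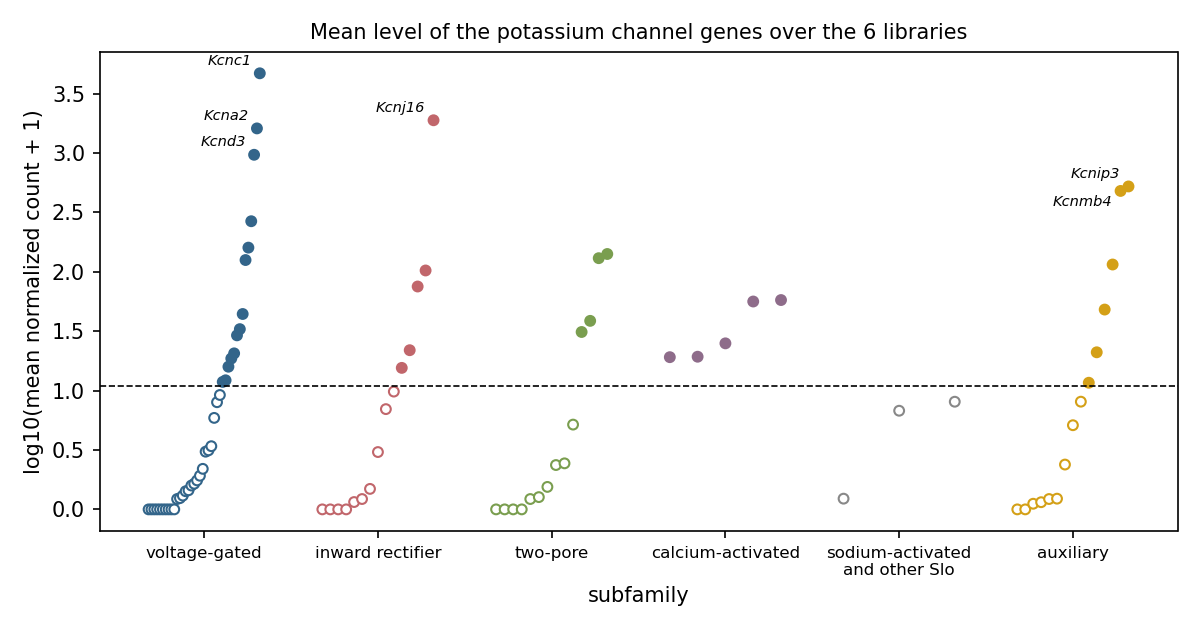
Mean normalized count of the 92 potassium channel genes over the 6 libraries, as log10(mean + 1), by subfamily. Each point is 1 gene, filled points are the 34 genes with a mean of at least 10 (dashed line) and open points the other 58, and genes with a mean above 400 carry their name. All 5 calcium-activated genes lie above the line and all 3 sodium-activated and other Slo genes below it.

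**Figure D2:**
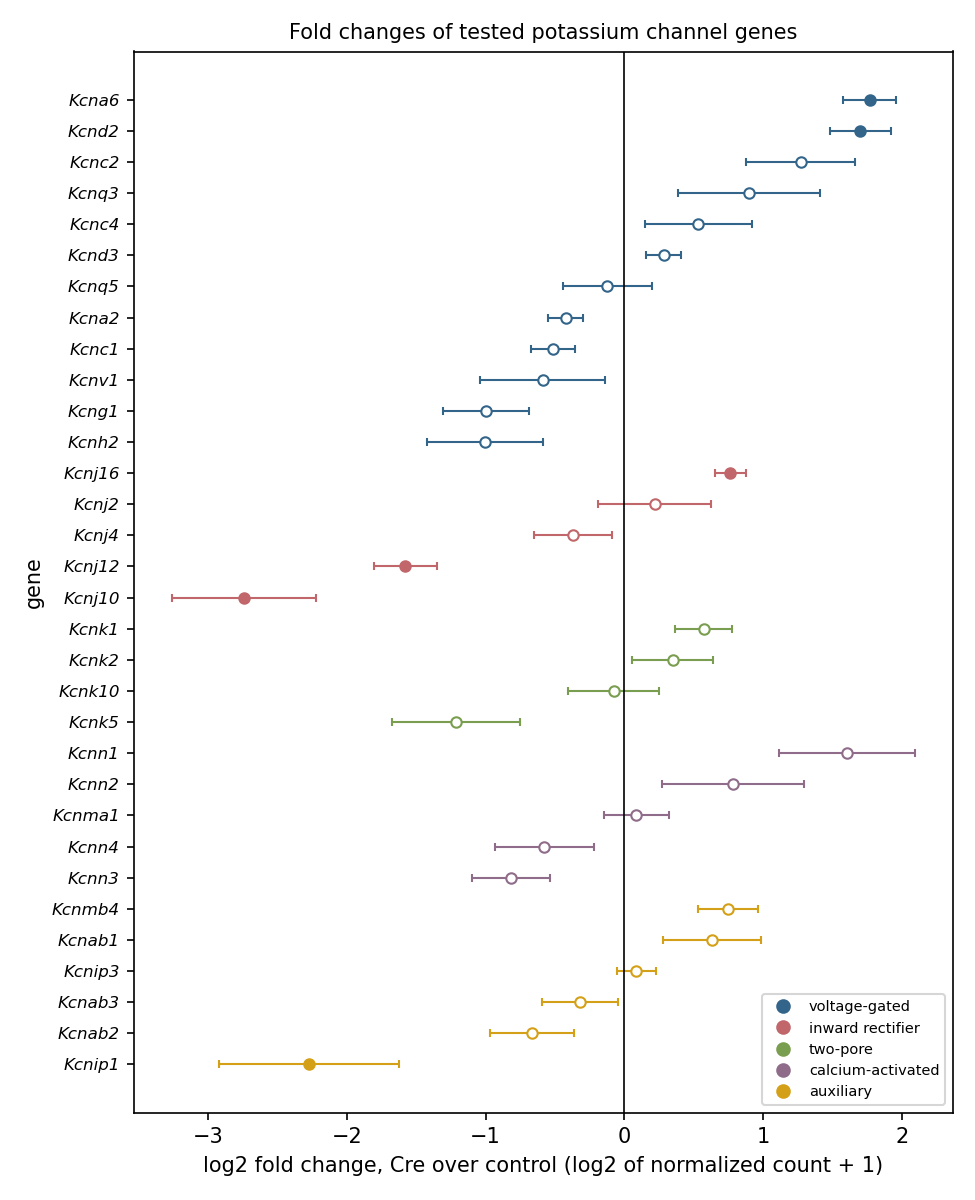
Log2 fold change of the Cre-labelled libraries over control for 32 of the 34 tested potassium channel genes, by subfamily, on the log2(normalized count + 1) scale. Points are the limma estimates, bars are 1 SE, and filled points are genes past an adjusted p of 0.05. *Kcna6* and *Kcnd2* are the highest and *Kcnj10* and *Kcnip1* the lowest.

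The pore of a potassium channel is lined by a short conserved stretch, the selectivity filter, that lets potassium pass and holds sodium back. Codons for this stretch, searched as threonine, then valine, isoleucine or leucine, glycine, then tyrosine, phenylalanine or leucine, and glycine, were found in 65 of the 76 channel-forming or silent subunits with a coding transcript in GENCODE M1. They were found in 0 of 15 auxiliary subunits, and 12 of the 14 two-pore channels carried them at 2 places; these subunits are known for 2 pore domains each. Among those without a match were *Kcnn1*, *Kcnn2* and *Kcnn3* and 7 *Kcnh* genes, which says only that these letters are not there. The filter codons of *Kcna6* and *Kcnj16* are shown with the bases around them, as a voltage-gated channel and an inward rectifier that both rose. Sequences are 5′ to 3′ on the coding strand, with the filter codons in capitals, and lie in coding exons of build mm9 (NCBI37):
Kcna6: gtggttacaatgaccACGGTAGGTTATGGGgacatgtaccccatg
Kcnj16: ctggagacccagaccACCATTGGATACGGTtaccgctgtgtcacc
The positions are chr6:126688650-126688694 on the minus strand for *Kcna6* and chr11:110886203-110886247 on the plus strand for *Kcnj16*. The 2 windows shared 23 of 45 bases, of which 9 were among the 15 bases of the filter codons.

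Among the voltage-gated channels, 14 of 40 genes were tested, and *Kcna6* and *Kcnd2* rose. *Kcna6*, a member of the Shaker (Kv1) family of low-threshold delayed rectifiers, lies at chr6:126658347-126690680 on the minus strand (mm9). Its normalized counts were 74.3, 57.0 and 85.4 in control and 235, 256 and 245 in the Cre-labelled libraries. The groups were far apart and the 3 Cre libraries lay close together. The mean rose from 72.2 ± 14.3 to 245 ± 10.1 (SD, n = 3), a log2 fold change of 1.77 ± 0.19 (SE; limma adjusted p = 0.000359). In the annotation, 39.5% of the exon bases of *Kcna6* are shared with an antisense long noncoding RNA, and the library kit does not mark strand, so that reads of both cannot be told apart there. *Kcna2*, another Shaker family member, was at 1902, 1744 and 1879 in control and 1210, 1600 and 1335 in the Cre-labelled libraries. All Cre values were below all control values, but the difference missed the threshold (log2 fold change -0.42 ± 0.13, limma adjusted p = 0.0606). Per kilobase of exon, *Kcna6* made up between 1.87% and 2.58% of the summed level of *Kcna2* and *Kcna6* in control libraries and between 8.51% and 10.2% in the Cre-labelled libraries.

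*Kcnd2* encodes a Shal (Kv4) channel of the fast inactivating A-type current and lies at chr6:21165503-21679805 on the plus strand (mm9). Its normalized counts were 157, 90.7 and 128 in control and 358, 511 and 349 in the Cre-labelled libraries. Every Cre library was more than 2 times above every control library. The mean rose from 125 ± 33.2 to 406 ± 91.2 (SD, n = 3), a log2 fold change of 1.70 ± 0.22 (limma adjusted p = 0.00105). Its paralog *Kcnd3* had 927, 850 and 832 in control and 916, 1125 and 1148 in the Cre-labelled libraries, so that the groups overlapped (log2 fold change 0.28 ± 0.13, limma adjusted p = 0.193, and 0.0446 without Cre replicate 2). The share of *Kcnd2* in the summed level per kilobase of *Kcnd2* and *Kcnd3* was 16.6% to 24.0% in control and 36.1% to 45.8% in the Cre-labelled libraries. Among the known partners of Kv4 channels, *Dpp6*, which speeds up their gating, had 61.5, 70.2 and 62.7 in control and 135, 171 and 274 in the Cre-labelled libraries (log2 fold change 1.503 ± 0.25, limma adjusted p = 0.00415).

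The Shaw (Kv3) family serves fast repolarization. Its member *Kcnc1* was the most abundant potassium channel gene per kilobase of exon in every control library. Its normalized counts were 5642, 5383 and 5421 in control and 2973, 4100 and 4636 in the Cre-labelled libraries. The groups did not overlap, but the Cre libraries were widely spread, and the difference missed the threshold (log2 fold change -0.51 ± 0.16, limma adjusted p = 0.0606, with 0.0699 in edgeR and 0.0400 in DESeq2). In limma the log2 fold change was -0.65 without Cre replicate 3 (adjusted p = 0.0181) and -0.33 without Cre replicate 2 (adjusted p = 0.0715). *Kcnc2* had 8.26, 10.2 and 10.7 in control and 18.01, 33.6 and 25.1 in the Cre-labelled libraries, which were all above control (log2 fold change 1.27 ± 0.39, limma adjusted p = 0.0638, and 0.0387 without Cre replicate 2). *Kcnc4* overlapped between the groups (limma adjusted p = 0.427).

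*Kcng1*, a silent subunit that forms channels only together with Kv2 subunits, had 70.7, 48.3 and 53.3 in control and 32.5, 35.3 and 18.8 in the Cre-labelled libraries (log2 fold change -0.997 ± 0.31, limma adjusted p = 0.0671, and 0.0439 without Cre replicate 2). *Kcnh2*, the ether-a-go-go related channel of cardiac repolarization, had 17.4, 14.6 and 29.3 in control and 10.4, 8.61 and 8.95 in the Cre-labelled libraries (log2 fold change -1.002 ± 0.42, limma adjusted p = 0.159). The silent subunit *Kcnv1* and the channels *Kcnq3* and *Kcnq5*, which underlie the M-current that damps repeated firing, overlapped between the groups, with log2 fold changes of -0.59, 0.90 and -0.12.

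**Figure D3:**
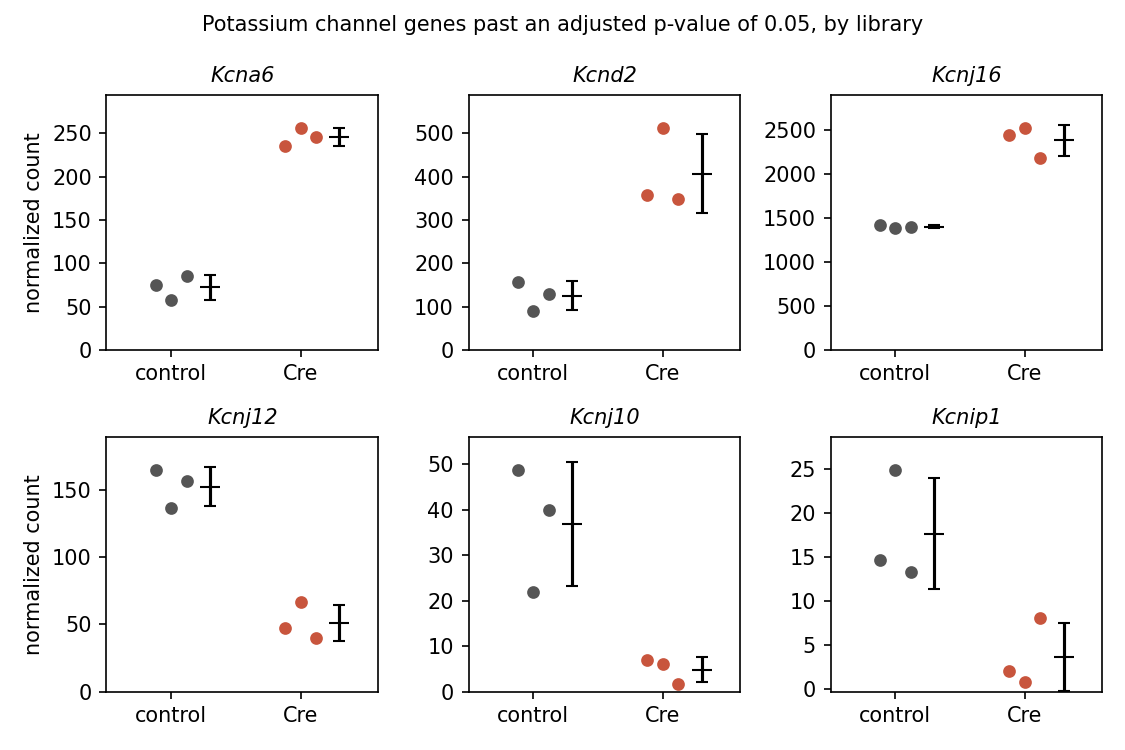
Normalized counts of 6 potassium channel genes past an adjusted p of 0.05, by group, on linear axes with a scale of their own. Points are single libraries, with replicates in the order 1, 1_1, 2 for control and 2, 2_2, 3 for Cre, and the bar beside them gives the mean ± 1 SD (n = 3). In each panel the groups do not overlap, and *Kcnip1* has the widest spread relative to its level.

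The inward rectifiers had 5 of 15 genes tested, of which 1 rose and 2 fell. *Kcnj16*, at chr11:110829347-110889282 on the plus strand (mm9), encodes a subunit that carries current mainly in channels shared with the *Kcnj10* subunit, the main inward rectifier of astrocytes. *Kcnj16* had normalized counts of 1414, 1382 and 1392 in control and 2443, 2515 and 2179 in the Cre-labelled libraries. The control libraries agree closely and all Cre libraries were higher. The mean rose from 1396 ± 16.3 to 2379 ± 177 (SD, n = 3), a log2 fold change of 0.77 ± 0.11 (limma adjusted p = 0.00193).

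*Kcnj10*, at chr1:174271341-174304216 on the plus strand (mm9), changed the other way. Its normalized counts were 48.6, 21.9 and 40.0 in control and 6.93, 6.03 and 1.79 in the Cre-labelled libraries, the last of which rest on 10, 7 and 2 reads. The lowest control library was more than 3 times the highest Cre library. The mean fell from 36.9 ± 13.6 to 4.91 ± 2.74 (SD, n = 3), a log2 fold change of -2.74 ± 0.52 (limma adjusted p = 0.00775), and the call was lost without control replicate 1 (adjusted p = 0.0633) or control replicate 2 (0.0550) in limma. Per kilobase of exon, *Kcnj16* exceeded *Kcnj10* by between 39.9 and 86.5 times in control libraries and by between 485 and 1672 times in the Cre-labelled libraries, where the highest value rests on 2 reads of *Kcnj10*.

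*Kcnj12*, at chr11:60836066-60884633 on the plus strand (mm9), encodes a strong inward rectifier of the Kir2 family. Its normalized counts were 164, 136 and 156 in control and 47.1, 66.3 and 40.3 in the Cre-labelled libraries. All Cre libraries were below the lowest control library, and the mean fell from 152 ± 14.5 to 51.2 ± 13.5 (SD, n = 3), a log2 fold change of -1.58 ± 0.23 (limma adjusted p = 0.00195). Its Kir2 family paralogs did not differ beyond their spread. *Kcnj4* had 81.7, 93.6 and 72.0 in control and 41.6, 69.7 and 86.9 in the Cre-labelled libraries (log2 fold change -0.37 ± 0.28, limma adjusted p = 0.450). *Kcnj2* was between 10.7 and 19.0 in control and between 13.2 and 17.01 in the Cre-labelled libraries (log2 fold change 0.22 ± 0.41, limma adjusted p = 0.785). The share of all inward rectifiers in the summed level per kilobase of the potassium channel genes was 19.6% to 20.9% in control and 26.8% to 29.6% in the Cre-labelled libraries, while that of the voltage-gated channels was 57.5% to 60.2% and 42.1% to 51.2%. The mean of *Kcnj16* on this scale went from 355 to 604, while *Kcnj12* went from 55.3 to 18.6 and *Kcnj10* from 6.82 to 0.909. Of the 5 inward rectifiers tested, 3 had a negative log2 fold change, so that the higher share does not hold gene by gene.

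**Figure D4:**
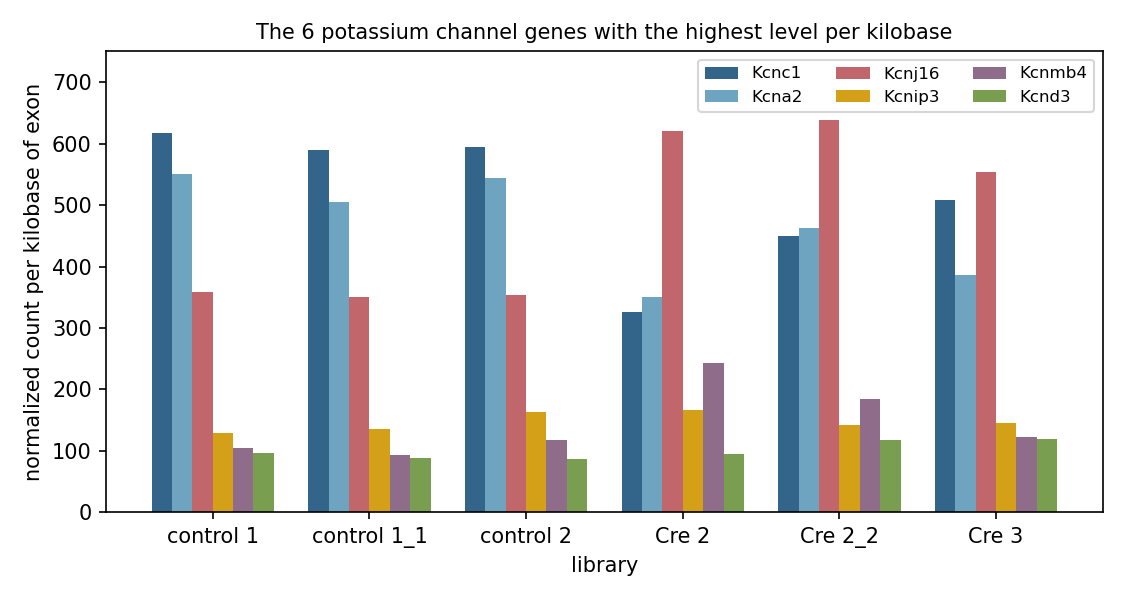
Normalized count per kilobase of exon, in each library, of the 6 potassium channel genes with the highest mean on this scale. *Kcnc1* is the highest bar in each of the 3 control libraries and *Kcnj16* in each of the 3 libraries labelled Cre.

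The order of the most abundant genes therefore differed between the groups. Per kilobase of exon, *Kcnc1*, *Kcna2* and *Kcnj16* had means of 601, 533 and 355 in control and 428, 400 and 604 in the Cre-labelled libraries. Together these 3 genes made up between 57.5% and 66.5% of the summed level per kilobase of all potassium channel genes with a known exon length, which were 91 of the 92. *Kcnip3* followed at 143 in control and 152 in the Cre-labelled libraries. In the Cre-labelled libraries, *Kcnc1* and *Kcna2* changed places from library to library and were not ordered beyond their spread.

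None of the 4 two-pore genes tested, out of 14, passed the threshold in limma, edgeR or DESeq2, although 2 of them had an unadjusted limma p under 0.05. These channels carry background potassium current. *Kcnk1* had normalized counts of 91.8, 130 and 116 in control and 178, 136 and 190 in the Cre-labelled libraries, which were all higher (log2 fold change 0.57 ± 0.20, limma adjusted p = 0.102). *Kcnk5*, an alkaline-activated channel, had 39.5, 33.6 and 49.3 in control and 29.8, 21.5 and 7.16 in the Cre-labelled libraries, which were all lower but widely spread (log2 fold change -1.21 ± 0.46, limma adjusted p = 0.125). In limma its log2 fold change was -1.61 without Cre replicate 2 (adjusted p = 0.0276) and -0.65 without Cre replicate 3 (adjusted p = 0.242). The mechanically gated *Kcnk2* had 106, 92.2 and 131 in control and 119, 231 and 96.7 in the Cre-labelled libraries, of which replicate 2_2 stood apart (log2 fold change 0.35 ± 0.29, limma adjusted p = 0.501, and a log2 fold change of -0.02 without that library). Its relative *Kcnk10* also overlapped between the groups (log2 fold change -0.08 ± 0.33).

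All 5 calcium-activated genes were tested and none passed the threshold in limma, where 2 had an unadjusted p under 0.05, while edgeR and DESeq2 each called 1, *Kcnn1*. *Kcnma1*, the large-conductance channel, had 56.0, 48.3 and 56.0 in control and 53.3, 50.8 and 67.2 in the Cre-labelled libraries, a log2 fold change of 0.09 ± 0.24 (limma adjusted p = 0.856) that was -0.03 without Cre replicate 3. The small-conductance genes *Kcnn1* and *Kcnn3* lay on opposite sides. *Kcnn1* had 6.42, 8.78 and 8.002 in control and 12.5, 28.4 and 45.7 in the Cre-labelled libraries (log2 fold change 1.61 ± 0.49). Its adjusted p was 0.0616 in limma, 0.00926 in limma without Cre replicate 2, 0.0489 in edgeR and 0.0211 in DESeq2. *Kcnn3* had 84.4, 57.0 and 76.0 in control and 29.1, 50.8 and 43.9 in the Cre-labelled libraries (log2 fold change -0.82 ± 0.28, limma adjusted p = 0.0929). *Kcnn2* and the intermediate-conductance channel *Kcnn4* overlapped between the groups, with log2 fold changes of 0.78 and -0.58.

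Of the 15 auxiliary subunits, 6 were tested and 1 passed the threshold. *Kcnip1*, a calcium-binding protein that assembles with Kv4 channels, lies at chr11:33529339-33893152 on the minus strand (mm9) and had 14.7, 24.9 and 13.3 in control and 2.08, 0.861 and 8.06 in the Cre-labelled libraries. The Cre values were all lower and rest on 3, 1 and 9 reads. The log2 fold change was -2.27 ± 0.65 (limma adjusted p = 0.0492), and leaving out any library other than Cre replicate 3 raised the adjusted p to between 0.0524 and 0.189, so that the call rests on all of these libraries. *Kcnip3*, of the same family, was at 460, 481 and 581 in control and 591, 504 and 518 in the Cre-labelled libraries, with overlapping groups (log2 fold change 0.09 ± 0.14, limma adjusted p = 0.749).

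*Kcnmb4*, the beta subunit that modifies large-conductance channels in the brain, had 347, 312 and 391 in control and 807, 611 and 406 in the Cre-labelled libraries. Cre replicate 3 was just above the highest control library and the other two were far above it. The adjusted p was 0.0521 in limma, 0.00401 in limma without Cre replicate 3, 0.0431 in edgeR and 0.00696 in DESeq2 (log2 fold change 0.75 ± 0.22). An antisense gene that shares 10.7% of its exon bases, *Kcnmb4os1*, had 95.4, 57.0 and 93.4 in control and 294, 172 and 80.6 in the Cre-labelled libraries (limma adjusted p = 0.137), and a further antisense gene shares up to 20.85%. The kit used cannot separate the strands. The Kv1 beta subunit *Kcnab1* was at 16.5, 16.1 and 13.3 in control and 18.7, 24.1 and 31.3 in the Cre-labelled libraries (log2 fold change 0.63 ± 0.36, limma adjusted p = 0.297), and *Kcnab2* and *Kcnab3* overlapped between the groups.

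The other 58 potassium channel genes had a mean under 10 and were not tested. Of these, 20 had 0 reads in every library and 22 more had at most 3 reads in every library. The remaining 16 had more than 3 reads in at least 1 library. The genes nearest the limit were *Kcnj11* (8.81), *Kcnh7* (8.19), *Kcnip2* (7.07) and *Kcnt1* (7.06) below it and *Kcnip1* (10.6), *Kcnv1* (10.8), *Kcnq3* (11.2) and *Kcnj2* (14.5) above it, given as mean normalized counts.

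Promoter sequences from RefSeq (build GRCm38.p6) were at hand for 6 of the 7 genes past the threshold, and 4 of them have 1 listed start. The listed starts were not matched to the positions of the counted genes, which are in mm9. On chr11 the coordinates of the *Kcnj12* stretch lie further from its mm9 gene start than those of the most upstream *Kcnip1* and *Kcnj16* stretches. The *Kcnj12* stretch may therefore not be the start of the counted gene. These 4 are shown since they pair 2 genes that rose with 2 that fell. Each runs 5′ to 3′ in the direction of transcription, with matches of the searched motifs on either strand in capitals:
Kcna6: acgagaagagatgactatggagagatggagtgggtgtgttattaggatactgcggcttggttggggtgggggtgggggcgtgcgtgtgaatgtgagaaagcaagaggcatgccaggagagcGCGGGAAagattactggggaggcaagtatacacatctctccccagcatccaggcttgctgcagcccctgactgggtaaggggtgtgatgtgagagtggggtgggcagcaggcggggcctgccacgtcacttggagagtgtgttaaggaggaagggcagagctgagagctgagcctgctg
Kcnd2: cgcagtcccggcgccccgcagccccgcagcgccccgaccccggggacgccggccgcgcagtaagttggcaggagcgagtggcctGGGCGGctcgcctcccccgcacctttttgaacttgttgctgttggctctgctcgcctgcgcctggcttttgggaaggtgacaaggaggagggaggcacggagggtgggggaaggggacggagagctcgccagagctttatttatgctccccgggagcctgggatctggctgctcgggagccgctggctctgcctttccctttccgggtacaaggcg
Kcnj10: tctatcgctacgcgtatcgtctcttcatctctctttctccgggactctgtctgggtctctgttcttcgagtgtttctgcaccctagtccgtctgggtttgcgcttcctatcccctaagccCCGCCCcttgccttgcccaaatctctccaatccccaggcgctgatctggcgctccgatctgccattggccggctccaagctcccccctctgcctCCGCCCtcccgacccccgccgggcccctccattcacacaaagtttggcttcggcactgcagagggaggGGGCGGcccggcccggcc
Kcnj12: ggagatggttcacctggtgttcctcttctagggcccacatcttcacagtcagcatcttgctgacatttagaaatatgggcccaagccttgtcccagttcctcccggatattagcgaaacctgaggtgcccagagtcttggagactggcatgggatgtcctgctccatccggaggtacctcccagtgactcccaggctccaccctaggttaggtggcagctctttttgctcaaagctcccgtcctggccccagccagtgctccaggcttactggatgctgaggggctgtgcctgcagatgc
Their positions are chr6:126740625-126740924 (minus strand), chr6:21215096-21215395, chr1:172340960-172341259 and chr11:61065554-61065853 (plus strand), in the same order. Each motif was searched on both strands, and the matches shown do not overlap. The letters of the Sp1-type box, GGGCGG, were present in 35.9% of 32544 RefSeq promoters with the same length. Those searched for the TATA element, TATAAA, were present in 13.6% of them. The nuclear receptor half-site, read here as AGGTCA, was present in 16.2%. For the core of E2F sites, the letters TTCCCGC were present in 4.63%. *Kcnj10* held 3 Sp1-type boxes, *Kcnd2* held 1, *Kcna6* held 1 E2F core and *Kcnj12* held none of the motifs. Among the stretches not shown, a *Kcnj16* start held 2 nuclear receptor half-sites, another 1 TATA element and another 1 Sp1-type box. A *Kcnip1* start held 1 Sp1-type box. *Kcnd2* and *Kcnj10* had 26 and 21 CpG dinucleotides, above the upper quartile of 20. *Kcna6* had 8, near the median of 7, and *Kcnj12* had 4, near the lower quartile of 3. CpG-rich starts were thus found for a gene that rose and for a gene that fell. Among the 4 stretches shown, a CpG-poorer start in a gene that fell rests on the *Kcnj12* stretch alone, whose place is uncertain. Of the stretches not shown, those of *Kcnip1*, which also fell, had 4, 16 and 7 CpG dinucleotides. Those of *Kcnj16*, which rose, had 3, 8, 5 and 1. A match of letters is a description, not a binding site.

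Genes that work alongside potassium channels were described from lists of their own. Of the sodium pump subunits, which restore the potassium gradient, 6 of 14 were tested, with a median log2 fold change of 0.24. *Atp1b2*, a glial beta subunit, rose (log2 fold change 0.66 ± 0.15, limma adjusted p = 0.0201), while *Atp1b1* fell (-0.61 ± 0.14, limma adjusted p = 0.0210). Of 6 genes of glial potassium and water handling, 5 were tested and 2 rose, the water channel *Aqp4* (1.64 ± 0.39, limma adjusted p = 0.0228) and the glutamate transporter *Slc1a2* (1.16 ± 0.13, limma adjusted p = 0.000382). Both are counted again among the astrocyte markers below, as are *Gja1*, *Gjb6* and *Slc1a3* of this list. Of 12 channel partners outside the Kcn names, 2 were tested, and *Dpp6* was the 1 that rose.

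Some markers of astrocytes and of the oligodendrocyte lineage rose, and of the neuron markers 1 rose and 1 fell. The threshold was missed by 4 of 9 astrocyte, 4 of 7 oligodendrocyte lineage and 8 of 10 neuron markers tested. Of all genes tested, 9.96% passed it. The part of cell types in the results on potassium channels was not tested. Of 9 astrocyte markers tested, out of 11, 5 rose and 0 fell, and their summed normalized counts were 13052 to 14551 in control and 21207 to 25055 in the Cre-labelled libraries. Most of these sums came from *Slc1a3* and *Sox9* (means 6060 and 4272 in control, 7408 and 8657 in the Cre-labelled libraries). Among the astrocyte markers *S100b* rose most (log2 fold change 3.10, limma adjusted p = 7.39e-07), and *Gfap* was at most 10.3 in any library. *Aldh1l1* lay the other way, at 18.4, 19.0 and 14.7 in control and 9.003, 2.58 and 4.48 in the Cre-labelled libraries, and missed the threshold (log2 fold change -1.65, limma adjusted p = 0.0650). Of 7 oligodendrocyte lineage markers tested, out of 10, 3 rose (*Olig2*, *Pdgfra* and *Cspg4*) and 0 fell, with sums of 12899 to 14824 and 17819 to 20124. Most of these sums came from *Olig1* and *Olig2* (control means 7872 and 5157). Of 10 neuron markers tested, out of 15, *Elavl4* rose and *Gap43* fell, with sums of 17845 to 18967 and 15406 to 17441, and *Stmn2* was at 0 in all libraries. Most of the neuron sums came from *Map2* and *Gap43* (control means 9210 and 8711). The summed NSC markers were 32824 to 36498 in control and 32154 to 34016 in the Cre-labelled libraries. Of the pericyte, endothelial, microglia and choroid plexus markers, 1, 1, 1 and 2 were tested and none passed the threshold in limma, edgeR or DESeq2, with 0, 1, 0 and 1 at an unadjusted limma p under 0.05. The defining genes *Pdgfrb*, *Cdh5*, *Cldn5*, *Tmem119* and *Ttr* were at 0 in all libraries. The sums of these lists were 24.9 to 33.0, 28.0 to 46.8, 164 to 206 and 629 to 693 in control and 15.2 to 53.3, 15.2 to 29.8, 168 to 274 and 433 to 579 in the Cre-labelled libraries. Most of the microglia sums came from *Csf1r* and most of the choroid plexus sums from *Otx2* (control means 183 and 616).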

How the data were processed

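RNA-seq values of 6 NSC libraries were analysed, grouped by the sample labels as 3 control (GFP) and 3 Cre. The authors prepared libraries with a kit that does not mark strand. Their methods name TopHat with mm9 and mm10, while the submitters' processing notes name STAR 2.7, DESeq2 and mm10. The read counter and annotation are not given in the sources used here. The signal deposited by the authors is a normalized count per gene and library, the read count divided by 1 size factor per library. The deposited columns of the authors' own comparison (a mean, log2 fold changes, standard errors, statistics and p-values) were not used.

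The table held 53379 genes, of which 873 lack a name and 1 lacks a value and was left out. The value of 1 read was found from the lowest values of each library, and 100% of the values came out whole, within 6.8e-05 of a read. Libraries of 1 group differed beyond sampling noise in every pair (chi-square per degree of freedom 6.37 to 40.0), also replicates 1 and 1_1 (15.9) and 2 and 2_2 (25.9), so that none is a second copy of another. This does not show separate cultures, and fits with each of these pairs averaged were made as alternatives. Tests used limma 3.58.1 (lmFit, eBayes with trend, R 4.3.3) on log2(normalized count + 1). The 14840 genes whose mean reached 10 were fitted, with Benjamini-Hochberg adjustment over all of them. Fold changes on this scale understate those of low genes. Alternatives were edgeR 4.0.16 and DESeq2 1.42.0 on the recovered reads, other pseudocounts, filters and scalings, pairs of replicates averaged, and each library left out. The fits were tested on simulated data.

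Genes were assigned to subfamilies by name. Exon lengths, positions and coding sequences came from GENCODE M1 (mm9), and promoters from RefSeq (GRCm38.p6). A few items covered by this rule are not reported here. Tested genes named in the text are otherwise those past the threshold, those whose groups do not overlap, the 2 with the highest level per kilobase in each subfamily and those nearest the limit of 10, and the others are mentioned briefly to account for all that were tested. From each other list, at most 4 genes past the threshold are named. The members and lists were chosen with earlier results of these data known.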

Additional observations from a re-analysis of the deposited data

How the results depend on the processing

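*Kcna6*, *Kcnd2*, *Kcnj12* and *Kcnj16* passed the threshold under all 16 alternatives that keep it at 0.05, *Kcnj10* under 13 of 15 and *Kcnip1* under 5 of 15, where *Kcnj10* and *Kcnip1* are left out by a minimum mean of 50. The count of potassium channel genes that rose was 3 as reported, 6 with DESeq2, 5 with edgeR and 7 at an adjusted p of 0.1, and ran from 3 to 6 with single libraries left out, the highest without Cre replicate 2. The count that fell was 4 as reported, 2 with a mean of at least 50, 2 with control replicates 1 and 1_1 averaged and 8 at an adjusted p of 0.1, and ran from 1 to 5 with single libraries left out, the lowest without control replicate 1. Over all genes, 1478 passed as reported, 660 with those controls averaged, 2380 at an adjusted p of 0.1, and 558 (without control replicate 1) to 2396 (without Cre replicate 2) with single libraries left out. It was also 643 without control replicate 2, 704 without control replicate 1_1 and 724 without Cre replicate 2_2. With single libraries left out, the log2 fold change of *Kcnk2* ran from -0.017 (without Cre replicate 2_2) to 0.61 (without Cre replicate 3), and that of *Kcnma1* from -0.034 (without Cre replicate 3) to 0.16 (without Cre replicate 2_2). Leaving out a library or averaging 2 lowers the number of samples, and the cause of the other differences was not tested. TMM scaling and scaling to the total count kept both counts. No paired analysis was possible because the groups share fewer than 2 replicate numbers. With 3 libraries a group and few reads per low gene, small changes were not detectable.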

Other observations

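Channels for other ions and the chloride cotransporters were examined beside the potassium channels. Of 27 voltage-gated sodium, calcium and HCN channel genes, 10 were tested with limma, 0 rose and 2 fell, with a median log2 fold change of -0.07. *Cacna1h*, the pore of a low-threshold (T-type) calcium channel, had normalized counts of 162, 234 and 196 in control and 61.6, 102 and 122 in the Cre-labelled libraries (log2 fold change -1.08 ± 0.26, limma adjusted p = 0.0227). *Cacna1a*, the pore of the P/Q-type calcium channel of synapses, had 151, 162 and 185 in control and 102, 93.0 and 122 in the Cre-labelled libraries (log2 fold change -0.65 ± 0.18, limma adjusted p = 0.0469). In both genes all Cre libraries were below all control libraries. The summed normalized counts of the 27 genes were 663 to 802 in control and 471 to 600 in the Cre-labelled libraries.

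Of 7 cation-chloride cotransporters, which move chloride together with sodium and potassium, 5 were tested and none passed the threshold in limma, edgeR or DESeq2, although 3 had an unadjusted limma p under 0.05, with a median log2 fold change of 0.06. *Slc12a2*, the sodium-potassium-chloride cotransporter, had 1385, 1371 and 1204 in control and 1594, 1730 and 1621 in the Cre-labelled libraries, which did not overlap (log2 fold change 0.32 ± 0.11, limma adjusted p = 0.101), and *Slc12a4* was higher without overlap as well (0.35 ± 0.13, limma adjusted p = 0.122). *Slc12a7*, a potassium-chloride cotransporter, lay the other way without overlap, at 82.6, 55.6 and 44.0 in control and 42.2, 22.4 and 43.0 in the Cre-labelled libraries (log2 fold change -0.75 ± 0.34, limma adjusted p = 0.185). These 3 genes were chosen after their values were seen.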
